A study of Mus musculus with 4 samples.

Results

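The genes of the proteasome were followed in the RNA-Seq values of Lgr5+ and Lgr6+ progenitors from the mouse cochlea. Members were chosen by name: every gene of the deposited table whose symbol begins with Psma to Psmg and goes on with a number. The rule found 50 of the 23997 genes in the table, and 47 of them were kept, since they reached an FPKM of 1 in one population or both. FPKM is a level, the number of sequenced fragments per length of transcript and per number of mapped fragments, so that levels of different genes can be set side by side. Of the 3 members that were not kept, the testis subunit *Psma8* was listed at 0 in both populations, the thymus subunit *Psmb11* had an FPKM of 0.608 in Lgr5+ and 0.261 in Lgr6+ progenitors, and *Psme2b*, a near copy of *Psme2*, had 0.319 and 0.183. One further member, *Psmc3ip*, shares only the spelling, since its protein acts in meiotic recombination. It was at 54.3 and 36.0 FPKM and was left out of the subunit groups.

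Lgr5 and Lgr6 are receptors for R-spondins, which strengthen Wnt signaling, and both mark supporting cells of the neonatal cochlea that can give rise to hair cells. Both populations were EGFP+ cells sorted from P3 cochleae of mice labelled as strain C57BL/6. Lgr5+ progenitors came from Lgr5-EGFP-IRES-CreERT2 mice and Lgr6+ progenitors from Lgr6-EGFP-IRES-CreERT2 mice, so each population was marked by a reporter at the gene that names it, and no other treatment or allele was stated. There were 4 samples, 2 per population, and per the methods of the study the RNA of a population was divided to give its replicates. The number of fractions named there differs from the number of libraries in the labels, so it is not clear what each combined value pools. The deposited table holds 1 combined FPKM value per population, so no value below has a replicate error, no difference was tested, and each comparison is between these populations of libraries only. The table gives no read counts, so the depth behind each value is unknown here.

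The proteasome degrades proteins that carry chains of ubiquitin. Its 20S core is a barrel of α rings and β rings, and 3 of the β subunits hold the active sites: *Psmb6* (caspase-like), *Psmb7* (trypsin-like) and *Psmb5* (chymotrypsin-like). The 19S regulator caps the barrel. Its base has a ring of ATPases that unfold the substrate, and its lid removes the ubiquitin. In cells that see interferon and in immune cells, *Psmb9*, *Psmb10* and *Psmb8* take the places of *Psmb6*, *Psmb7* and *Psmb5* and form the immunoproteasome, whose products feed class I antigen presentation. Other complexes, the activators, can cap the barrel in place of 19S, and dedicated chaperones guide the assembly of the core and of the base. In the inner ear, ubiquitin and the proteasome are known to set the stability of Atoh1, the transcription factor that starts hair cell formation.

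Among the catalytic subunits the constitutive and the inducible genes differed in opposite directions, and therefore their promoters are shown, except for *Psmb7*, which had no entry. Each is RefSeq sequence of GRCm38.p6, 300 bases long, running 5′ to 3′ on the gene's strand. It holds the 250 bases before an annotated start of transcription and the 50 bases from that start on. For *Psmb6* that start is not the first annotated base of the gene, which is at 70525324. The *Psmb6* promoter is chr11:70525107-70525406 on the plus strand, that of *Psmb5* is chr14:54617946-54618245 on the minus strand, that of *Psmb9* is chr17:34187281-34187580 on the minus strand, that of *Psmb8* is chr17:34197945-34198244 on the plus strand, and that of *Psmb10* is chr8:105938343-105938642 on the minus strand. Capitals mark the match to a searched motif: TGACNNNGC, the core of the antioxidant response element, in *Psmb6* and *Psmb5*; CCAAT, read on the other strand as ATTGG, in *Psmb9*; and TTCNNNGAA, the core of a STAT site, in *Psmb8*.
Psmb6: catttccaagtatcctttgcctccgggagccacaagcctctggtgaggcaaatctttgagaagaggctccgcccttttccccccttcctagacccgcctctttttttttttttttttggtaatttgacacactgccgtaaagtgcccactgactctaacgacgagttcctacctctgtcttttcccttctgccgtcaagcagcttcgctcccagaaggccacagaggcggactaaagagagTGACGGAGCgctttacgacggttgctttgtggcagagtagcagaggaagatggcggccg
Psmb5: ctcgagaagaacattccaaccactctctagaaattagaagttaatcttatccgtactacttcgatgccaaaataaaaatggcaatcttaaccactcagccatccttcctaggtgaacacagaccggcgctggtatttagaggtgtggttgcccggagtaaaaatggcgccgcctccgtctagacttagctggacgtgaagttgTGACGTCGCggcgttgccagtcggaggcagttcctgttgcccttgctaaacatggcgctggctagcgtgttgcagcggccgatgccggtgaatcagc
Psmb9: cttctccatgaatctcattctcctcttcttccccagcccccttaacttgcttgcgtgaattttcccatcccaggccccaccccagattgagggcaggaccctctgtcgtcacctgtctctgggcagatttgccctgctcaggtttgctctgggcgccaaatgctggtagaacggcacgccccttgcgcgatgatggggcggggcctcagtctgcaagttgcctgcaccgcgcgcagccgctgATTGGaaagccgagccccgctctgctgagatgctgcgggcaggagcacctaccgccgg
Psmb8: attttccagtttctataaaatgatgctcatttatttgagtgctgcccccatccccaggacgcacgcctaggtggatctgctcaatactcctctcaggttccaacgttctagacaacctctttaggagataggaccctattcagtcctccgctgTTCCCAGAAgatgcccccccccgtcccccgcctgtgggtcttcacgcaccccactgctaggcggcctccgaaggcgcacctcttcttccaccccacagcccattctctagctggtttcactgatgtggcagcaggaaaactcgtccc
Psmb10: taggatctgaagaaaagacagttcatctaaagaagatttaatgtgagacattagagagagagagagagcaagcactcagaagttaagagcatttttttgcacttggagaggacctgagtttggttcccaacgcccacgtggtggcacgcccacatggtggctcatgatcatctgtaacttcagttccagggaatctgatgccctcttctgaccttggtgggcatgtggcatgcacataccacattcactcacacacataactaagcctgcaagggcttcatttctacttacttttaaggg

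The 5 promoters thus differed in the motifs they held. The match began at base 242 in *Psmb6*, at base 204 in *Psmb5*, at base 243 in *Psmb9* and at base 154 in *Psmb8*, while *Psmb10* held none of the 5 motifs searched. The other motifs were GAAA, any 2 bases, GAAA (the core of the interferon stimulated response element) and GCGCA, any base, GCGC (the core of the site of Nrf1, nuclear respiratory factor), and all were searched on both strands. A match says only that these letters are present, and the absence of one only that they are not in this window. The promoters of *Psmb9*, *Psmb5* and *Psmb6* held 17, 20 and 15 CpG dinucleotides, and that of *Psmb10* held 3. The *Psmb9* window also holds the annotated start of *Tap1*, the peptide transporter gene that lies 225 bases away on the opposite strand, and *Psmb8* begins 969 bases beyond *Tap1*.

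RefSeq promoters were found for 42 of the 50 members. TGACNNNGC was present in 6 of them, *Psmb5*, *Psmb6*, *Psmc6*, *Psmd9*, *Psmd12* and *Psme4*, which is 14.3%, and in 12.4% of all 32851 promoters. The Nrf1 core was present in 7 members (16.7%) and in 4.6% of all promoters. These 7 were *Psma2*, *Psma3*, *Psma4*, *Psmc4*, *Psmc5*, *Psmd14* and *Psmg1*. The interferon element core was present in *Psmb3*, *Psmd4*, *Psmd9*, *Psme1* and *Psmg4*, 11.9% of members against 3.44% of all promoters. CCAAT stood in 35.7% of members and 37.4% of all promoters, and TTCNNNGAA in 7.14% and 8.3%. Member promoters were also richer in CpG, with a median of 19 against 7 in all promoters. The Nrf1 core itself holds CpG, and no share here was adjusted for base composition.

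All 31 listed genes of the constitutive 26S proteasome were present in both populations. They ranged from 30.8 FPKM (*Psmd14*) to 820.0 FPKM (*Psmb6*) in Lgr5+ progenitors and from 27.7 FPKM (*Psmd11*) to 470.4 FPKM (*Psmb6*) in Lgr6+ progenitors. In each population *Psmb6* was the highest member, at rank 170 of all genes in Lgr5+ and rank 241 in Lgr6+ progenitors. The 50 members together held 1.09% of the summed FPKM in Lgr5+ and 0.982% in Lgr6+ progenitors, and 12 and 10 of them stood among the 500 highest genes. The order of the 26S subunits was similar in both, with a Pearson correlation of 0.936 across these 31 genes on the log2(FPKM + 1) scale. Genes are not independent replicates, and the correlation is given as a description.

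**Figure D1:**
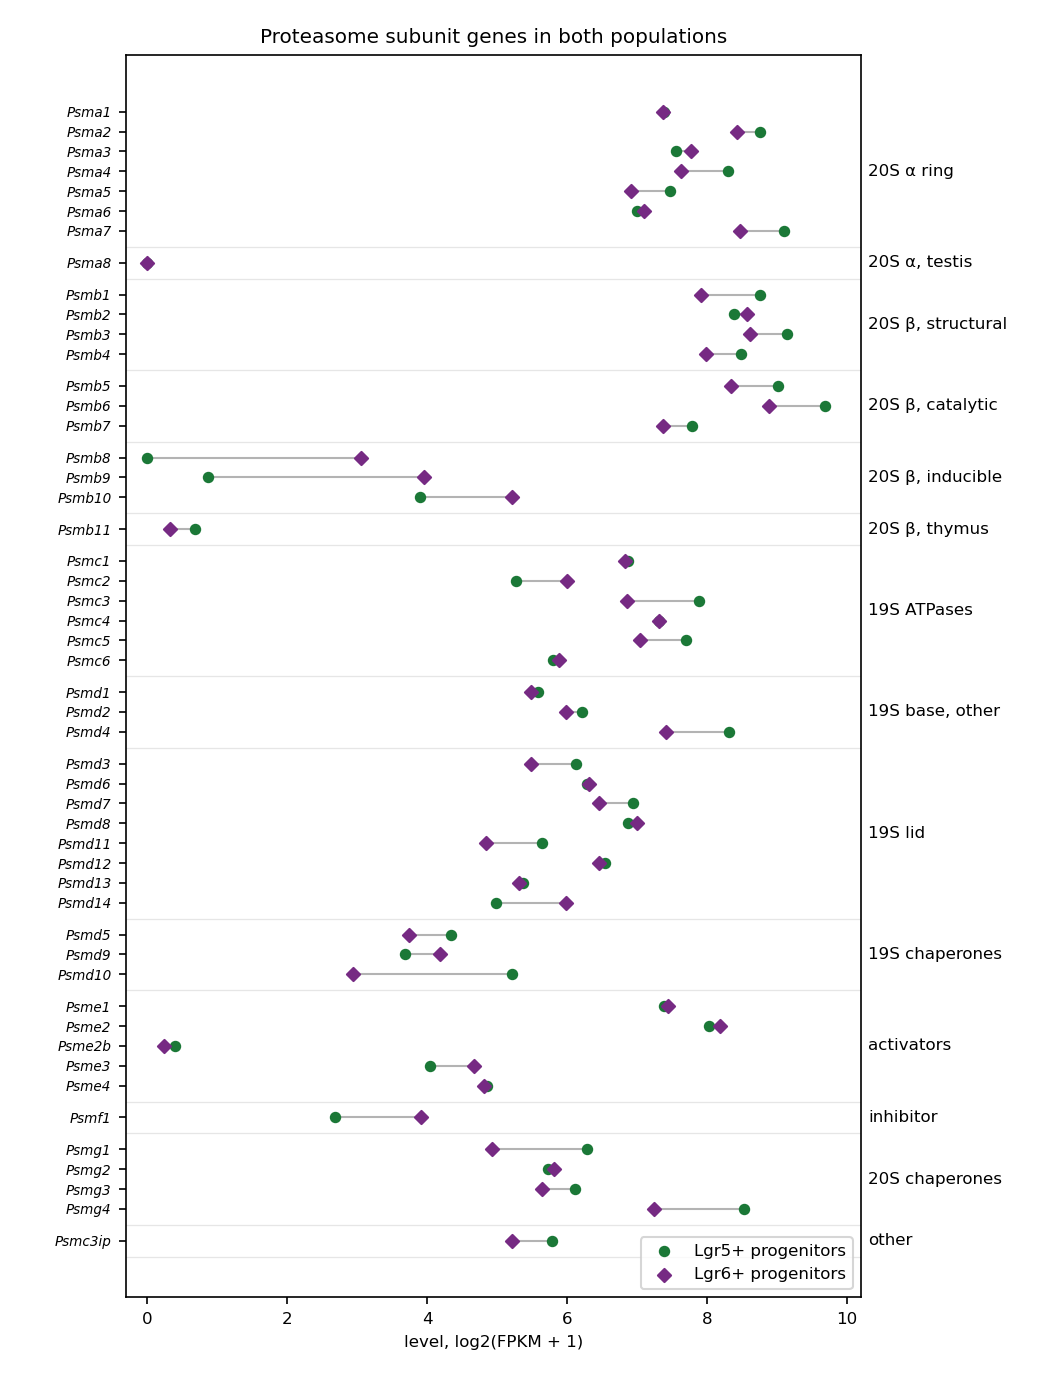
Level of each of the 50 members, log2(FPKM + 1), in Lgr5+ (circles) and Lgr6+ progenitors (diamonds), 1 combined value per population joined by a line, ordered by role. *Psmb6* lies farthest right in both populations, at 820.0 and 470.4 FPKM, and the inducible subunits *Psmb8*, *Psmb9* and *Psmb10* are all higher in Lgr6+ progenitors.

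Log2 changes below are Lgr6+ minus Lgr5+ progenitors on the log2(FPKM + 1) scale, which understates the change of low genes. At the fold used here, 1.5 on that scale, 14 of the 47 kept members (29.8%) were lower in Lgr6+ progenitors, beside 23.3% of all 13436 kept genes. By the same measure 7 members (14.9%) were higher, beside 28.5% of all kept genes, and 26 members lay between. The median change of the members was -0.10 and that of all kept genes 0.03. Members ranged from -2.28 (*Psmd10*) to 3.08 (*Psmb9*), with quartiles at -0.64 and 0.12. Among the 4913 genes that reached an FPKM of 20 in one population or both, 13 of 42 members were lower, beside 26.2% of these genes, and 4 were higher, beside 19%.

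The direction of the members' median depended on how the populations were scaled. The FPKM of all genes summed to 754163 in Lgr5+ and to 627932 in Lgr6+ progenitors. When both were rescaled to the same sum, the members' median turned to 0.16 and that of all kept genes moved to 0.28, with 5 members lower and 8 higher, beside 17.0% and 37.8% of all kept genes. The members' median less that of all kept genes was -0.13 as deposited, -0.12 after rescaling and -0.03 with quantile normalization. With quantile normalization 7 members were lower and 7 higher, beside 25.5% of all kept genes in each direction. At a 2-fold threshold 4 members were lower and 4 higher, beside 11.7% and 18.2% of all kept genes. Across 5 versions (as deposited, same sum, same upper quartile, quantile, and less the median of genes at the same level), 5 members stayed at least 1.5-fold lower and 6 at least 1.5-fold higher, beside 16.8% and 24.0% of all kept genes. The 5 lower members were the ATPase *Psmc3*, the ubiquitin receptor *Psmd4* and the chaperones *Psmd10*, *Psmg1* and *Psmg4*. The 6 higher members were *Psmb8*, *Psmb9*, *Psmb10*, *Psmc2*, *Psmd14* and *Psmf1*.

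The α ring of the core, which gates the entry of substrates, was made of 7 genes with levels from 127 to 548 FPKM in Lgr5+ and from 120 to 354 FPKM in Lgr6+ progenitors. *Psma7* was the highest, at 548 FPKM in Lgr5+ and 354 FPKM in Lgr6+ progenitors, a log2 change of -0.63. *Psma4* stood at 314 and 198 FPKM, a change of -0.66. These were the only 2 of the 7 α genes past 1.5-fold, beside 23.3% of all kept genes lower, and neither stayed past it after rescaling. *Psma2* had 434 and 345 FPKM and *Psma5* 176 and 120 FPKM, whereas *Psma1* was nearly equal at 165 and 164 FPKM. *Psma3* and *Psma6* leaned the other way, with changes of 0.22 and 0.10. Reads from other listed genes that overlap the loci of *Psma3*, *Psma4* and *Psma6* could not be told apart. The median change of all 7 α genes was -0.33 as deposited, -0.07 after rescaling to the same sum and 0.03 with quantile normalization.

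In the constitutive β ring, the summed level differed more for the catalytic than for the structural genes. The FPKM of the catalytic genes in Lgr6+ progenitors added up to 61.5% of that in Lgr5+ progenitors. This compares with 75.03% for the 4 structural β genes, 78.7% for the α ring and 83.3% for all genes. *Psmb6* was at 820.0 and 470.4 FPKM, a log2 change of -0.80, *Psmb5* at 518 and 323 FPKM (-0.68), and *Psmb7* at 219.8 and 165 FPKM (-0.41). All 3 active-site genes were thus lower in Lgr6+ progenitors, the first pair by more than 1.5-fold. After rescaling to the same sum the changes were -0.54, -0.42 and -0.15, on the same side of 0 but short of 1.5-fold. Among the structural genes, *Psmb1* was at 430.1 and 239.9 FPKM (-0.84), *Psmb3* at 564 and 391 FPKM (-0.53) and *Psmb4* at 358 and 252 FPKM (-0.50). Less the median of genes at the same level, *Psmb6*, *Psmb5* and *Psmb7* were at -0.39, -0.27 and -0.26 and *Psmb1* at -0.59. *Psmb2* was the one β gene of the constitutive ring with a higher value in Lgr6+ progenitors, 332 against 380.0 FPKM. RefSeq lists 6 pseudogenes of *Psma5*, *Psmb5*, *Psmb6* and *Psmb7*, and reads shared with them could have been split by the counting.

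The inducible subunits went in the opposite direction. *Psmb9* was at 0.829 FPKM in Lgr5+ and at 14.5 FPKM in Lgr6+ progenitors, 17.4 times higher and a log2 change of 3.08. *Psmb10* was at 14.0 and 36.1 FPKM, 2.58 times higher (1.31). *Psmb8* was listed at 0 in Lgr5+ and at 7.31 FPKM in Lgr6+ progenitors, and no fold is given for it. All 3 values were therefore higher in Lgr6+ progenitors. *Psmb8* and *Psmb9* passed the filter on low values only through Lgr6+ progenitors, so that they had to differ, and where both populations must reach an FPKM of 1 only *Psmb10* was left. They remained low beside the subunits they can replace. *Psmb9* stood at 0.101% of the level of *Psmb6* in Lgr5+ and at 3.07% in Lgr6+ progenitors, *Psmb10* at 6.36% and 21.9% of the level of *Psmb7*, and *Psmb8* at 2.26% of *Psmb5* in Lgr6+ progenitors. Of the FPKM of all 6 catalytic genes, the inducible ones held 0.942% in Lgr5+ and 5.70% in Lgr6+ progenitors.

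Markers of macrophages and of blood vessels moved with the inducible subunits. Of 10 macrophage markers, 9 were kept and all 9 were higher by 1.5-fold in Lgr6+ progenitors, beside 28.5% of all kept genes. The summed level of the 10 was 3.77 FPKM in Lgr5+ and 271.5 FPKM in Lgr6+ progenitors. Only *Cd68*, at 2.41 FPKM, reached an FPKM of 1 in Lgr5+ progenitors. The other kept ones passed the filter only through Lgr6+ progenitors, so that they had to be higher. *C1qb*, *C1qc*, *Tyrobp*, *Aif1*, *Csf1r* and *Ptprc* were listed at 0 in Lgr5+ progenitors. In Lgr6+ progenitors *C1qb* was at 69.9 FPKM, whereas *Ptprc*, the pan-leukocyte marker, was at 0.00814 FPKM. All 5 endothelial markers were higher as well, with sums of 19.7 and 124 FPKM. Of these, *Pecam1* and *Kdr* also passed the filter only through Lgr6+ progenitors. The part of these cells in the levels of *Psmb8*, *Psmb9* and *Psmb10* was not tested. As the samples are bulk RNA, fewer cells of a type and less RNA per cell cannot be told apart for any member.

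Other genes of class I presentation were mixed. Of the 9 reported here, 8 were kept, with a median change of 0.63. By 1.5-fold 4 were higher and 1 lower, beside 28.5% and 23.3% of all kept genes. *B2m*, the light chain of class I molecules, was at 17.6 FPKM in Lgr5+ and 129.7 FPKM in Lgr6+ progenitors, and the class I heavy chain *H2-K1* was at 7.46 and 12.5 FPKM. *Irf1* was higher, at 0.543 and 1.55 FPKM, as was *Erap1*, at 0.576 and 1.72 FPKM. Both passed the filter only through Lgr6+ progenitors, so that they had to be higher. *Tap1*, which shares its start region with *Psmb9*, did not follow it and was at 2.27 and 1.59 FPKM. *Tap2*, which passed the filter only through Lgr5+ progenitors and so had to be lower, was at 2.53 and 0.979 FPKM. *Tapbp* was nearly equal at 26.4 and 25.9 FPKM. *H2-D1*, another heavy chain, was at 13.5 and 20.6 FPKM, a change of 0.58 that stopped just short of 1.5-fold on this scale.

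**Figure D2:**
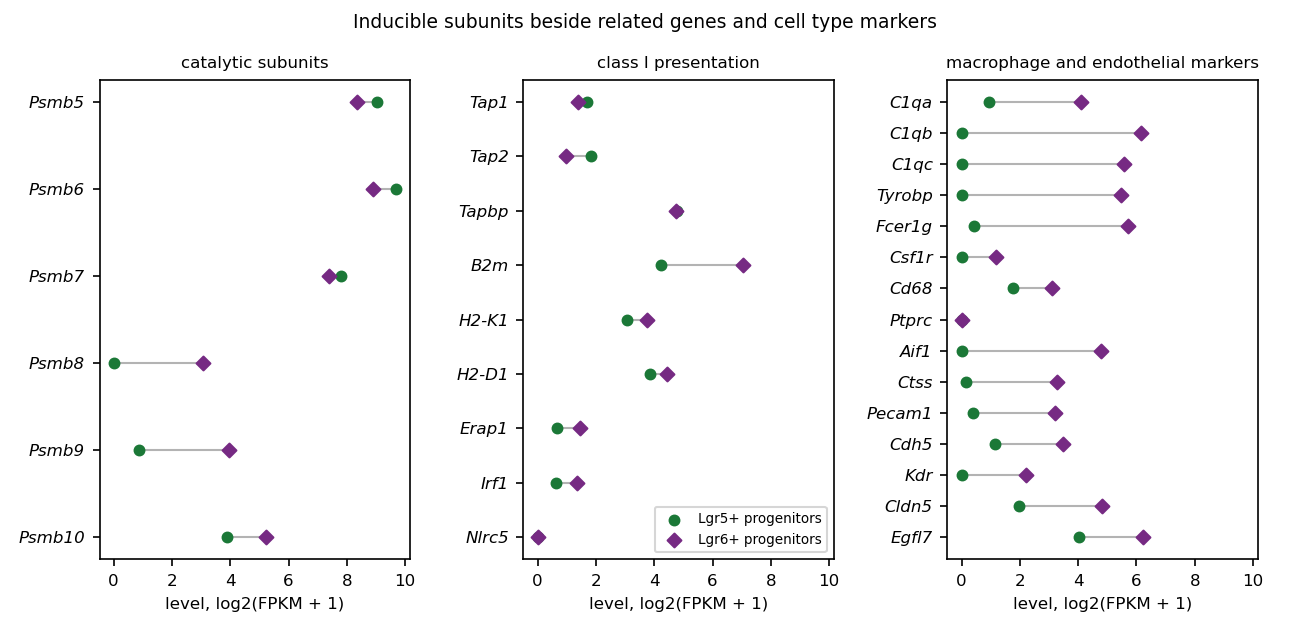
Levels, log2(FPKM + 1), of the catalytic subunits, of class I presentation genes and of macrophage and endothelial markers in Lgr5+ (circles) and Lgr6+ progenitors (diamonds), 1 combined value per population. *Psmb8*, *Psmb9* and *Psmb10* lie to the right in Lgr6+ progenitors, as do *B2m* and all 14 kept markers, whereas *Psmb5*, *Psmb6*, *Psmb7*, *Tap1* and *Tap2* lie to the left. Of the kept markers, only *Cd68*, *Cdh5*, *Cldn5* and *Egfl7* reached an FPKM of 1 in Lgr5+ progenitors, and the others had to be higher in Lgr6+ progenitors.

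Of the activators, which open the core without ubiquitin, 3 of 4 kept genes differed by less than 0.2 on the log2 scale as deposited. *Psme1* and *Psme2* form the PA28αβ ring, which is inducible by interferon like *Psmb8* to *Psmb10*, and their loci lie 5912 bases apart. *Psme1* was at 166 FPKM in Lgr5+ and 173 FPKM in Lgr6+ progenitors and *Psme2* at 261 and 291 FPKM, with changes of 0.05 and 0.16. The locus of *Psme1* overlaps that of *Emc9*. *Psme3*, which forms the nuclear PA28γ, was higher at 15.5 and 24.4 FPKM (0.62), and *Psme4*, the PA200 activator, was at 28.1 and 27.0 FPKM. After rescaling to the same sum, *Psme1*, *Psme2* and *Psme4* were at 0.32, 0.42 and 0.20, beside a median of 0.28 for all kept genes. *Psmf1*, an inhibitor that binds the core, was 2.58 times higher, at 5.45 FPKM in Lgr5+ and 14.0 FPKM in Lgr6+ progenitors.

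The ATPases of the 19S base were uneven, with 2 lower and 1 higher by 1.5-fold among 6, beside 23.3% and 28.5% of all kept genes. *Psmc3* was at 235 FPKM in Lgr5+ and 115 FPKM in Lgr6+ progenitors, 2.04 times lower and a log2 change of -1.03. Its partner in assembly, *Psmc6*, was at 54.7 and 57.9 FPKM. *Psmc2* was 1.68 times higher in Lgr6+ progenitors, at 37.5 and 63.0 FPKM, and its partner *Psmc1* was at 116 and 113 FPKM. *Psmc5* was at 207 and 131 FPKM (-0.66), and its partner *Psmc4* was level at 158 and 157 FPKM. As deposited, then, in each of the 3 ATPase pairs 1 gene differed by more than 1.5-fold and the other by less than 0.1 on the log2 scale. This did not hold after rescaling to the same sum. There *Psmc5* fell short of 1.5-fold (-0.40), and *Psmc6*, *Psmc1* and *Psmc4* were at 0.34, 0.23 and 0.26. The 6 levels lay within 6.27-fold of each other in Lgr5+ and within 2.72-fold in Lgr6+ progenitors. The median change of the ATPases was -0.02 as deposited and 0.24 after rescaling to the same sum.

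Of the other 11 subunits of 19S, 3 were lower and 1 was higher by 1.5-fold, beside 23.3% and 28.5% of all kept genes. *Psmd4*, an intrinsic receptor for ubiquitin chains, was at 317 FPKM in Lgr5+ and 169 FPKM in Lgr6+ progenitors, a change of -0.90. It was the highest of the 19S genes in the list in both populations. The lid scaffold *Psmd11*, which clamps the lid to the core, was at 49.0 and 27.7 FPKM (-0.80), and *Psmd3* was at 69.2 and 43.7 FPKM (-0.65). In contrast, *Psmd14*, the metalloprotease that cuts ubiquitin chains off the substrate, was 2.03 times higher at 30.8 and 62.5 FPKM (1.00). It was the lowest 26S subunit in Lgr5+ progenitors. *Psmd7*, with which it forms a dimer, was at 122 and 86.6 FPKM (-0.49), so that the levels of the pair were closer in Lgr6+ progenitors. *Psmd1*, *Psmd2*, *Psmd6*, *Psmd8*, *Psmd12* and *Psmd13* had changes between -0.24 and 0.13. The median of these 11 genes was -0.10 as deposited and 0.16 after rescaling.

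By their medians, the listed core subunits were higher than the listed regulator subunits in both populations. The median of the 14 constitutive 20S genes was 345 FPKM in Lgr5+ and 246 FPKM in Lgr6+ progenitors, and that of the 17 listed 19S genes was 76.8 and 78.6 FPKM. The ratio of these medians was 4.49 in Lgr5+ and 3.13 in Lgr6+ progenitors. In each population, 4 of the 19S genes lay above the lowest 20S gene. Summed FPKM in Lgr6+ progenitors came to 72.3% of that in Lgr5+ progenitors for these 20S genes. It came to 79.4% for the 17 listed 19S genes and to 83.3% for all genes of the table. The 19S figures leave out *Shfm1* (2121 and 1326 FPKM) and *Adrm1* (132 and 144 FPKM), 19S subunits whose symbols lie outside the rule. As *Shfm1* alone exceeds the sum of the 17 genes in Lgr5+ progenitors (1842 FPKM), the 79.4% does not describe 19S as a whole. The listed genes also differed less among themselves in Lgr6+ progenitors. The highest and lowest of the 31 listed 26S subunits lay 26.7-fold apart in Lgr5+ and 17.0-fold apart in Lgr6+ progenitors.

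The assembly chaperones had a median change of -0.60, which stayed below 0 (-0.36) after rescaling to the same sum. Of these 7 genes, 4 were lower by 1.5-fold and none was higher, beside 23.3% and 28.5% of all kept genes. *Psmd5*, one of the 4, fell short of 1.5-fold (-0.36) after rescaling. The summed FPKM of the 7 genes in Lgr6+ progenitors was 50.8% of that in Lgr5+ progenitors. *Psmd10* (gankyrin), on chromosome X, was at 36.1 FPKM in Lgr5+ and 6.66 FPKM in Lgr6+ progenitors, 5.42 times lower. *Psmd10* helps to assemble the ATPase pair *Psmc4* and *Psmc5*. The other base chaperones were less far apart, with *Psmd5* at 19.3 and 12.4 FPKM (-0.60) and *Psmd9* at 11.8 and 17.3 FPKM (0.51).

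The chaperones of the core work as dimers, and in both dimers 1 gene was lower by more than 1.5-fold and its partner was not. *Psmg1* was at 77.0 FPKM in Lgr5+ and 29.4 FPKM in Lgr6+ progenitors, 2.62 times lower, while its partner *Psmg2* was at 52.1 and 55.4 FPKM. *Psmg4* was at 367 and 151 FPKM, 2.43 times lower, while its partner *Psmg3* was at 68.5 and 48.9 FPKM. In Lgr5+ progenitors *Psmg4* thus lay within the range of the core subunits and well above the chaperone it pairs with. *Pomp*, the chaperone of the β ring, whose symbol lies outside the rule, was at 698 and 467 FPKM (-0.58).

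**Figure D3:**
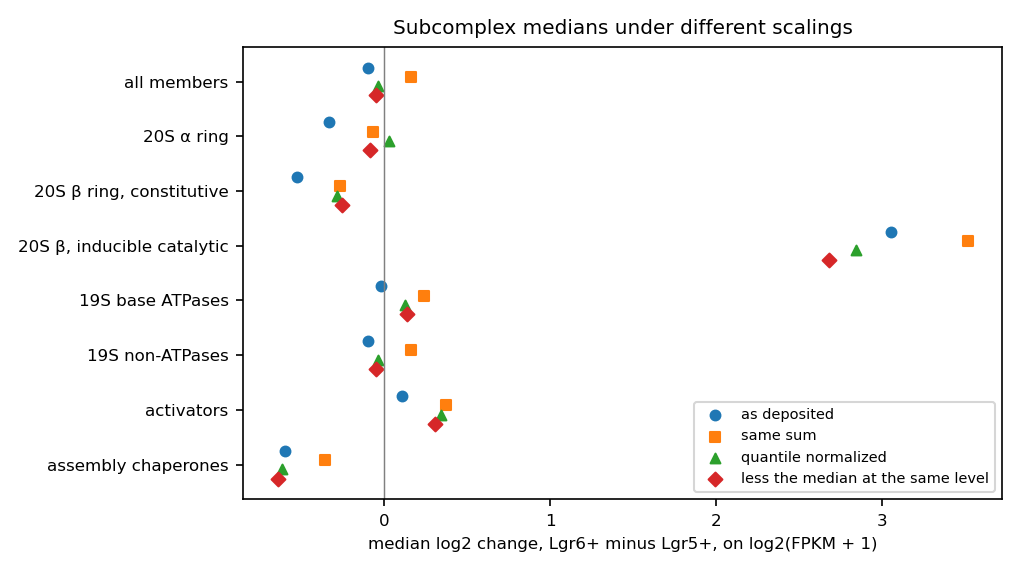
Median log2 change (Lgr6+ minus Lgr5+ progenitors, log2(FPKM + 1) scale) of each group of members under 4 scalings: as deposited (circles), same sum (squares), quantile normalized (triangles) and less the median at the same level (diamonds). The inducible subunits lie between 2.68 and 3.52, but this median is set by *Psmb8* and *Psmb9*. Both passed the filter only through Lgr6+ progenitors, so that they had to be higher. Where both populations must reach an FPKM of 1, only *Psmb10* was left, at 1.31 as deposited. The chaperones and the β ring stay below 0 under all 4, and the α ring, the ATPases, the other 19S subunits and all members lie on both sides of 0.

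The change of the members varied with their level, as it did among all genes. Kept genes with a mean FPKM of 400 or more had a median change of -0.41, compared with -0.15 between 50 and 100 FPKM and 0.37 below 5 FPKM. The 4 members in the highest range, *Psma7*, *Psmb3*, *Psmb5* and *Psmb6*, had a median change of -0.66, and all 4 lay below the median of their range. Between 200 and 400 FPKM, 6 of 9 members lay below the median of -0.25. Between 100 and 200 FPKM, 5 of 11 members did so, with a members' median of -0.03 beside -0.16. Over all ranges, 26 of 47 members and 19 of the 31 26S subunits were below the median of genes at their own level, and the members' median, taken relative to it, was -0.05. *Psmb6* went from -0.80 to -0.39 by this measure, *Psmb1* from -0.84 to -0.59 and *Psmc3* from -1.03 to -0.87.

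**Figure D4:**
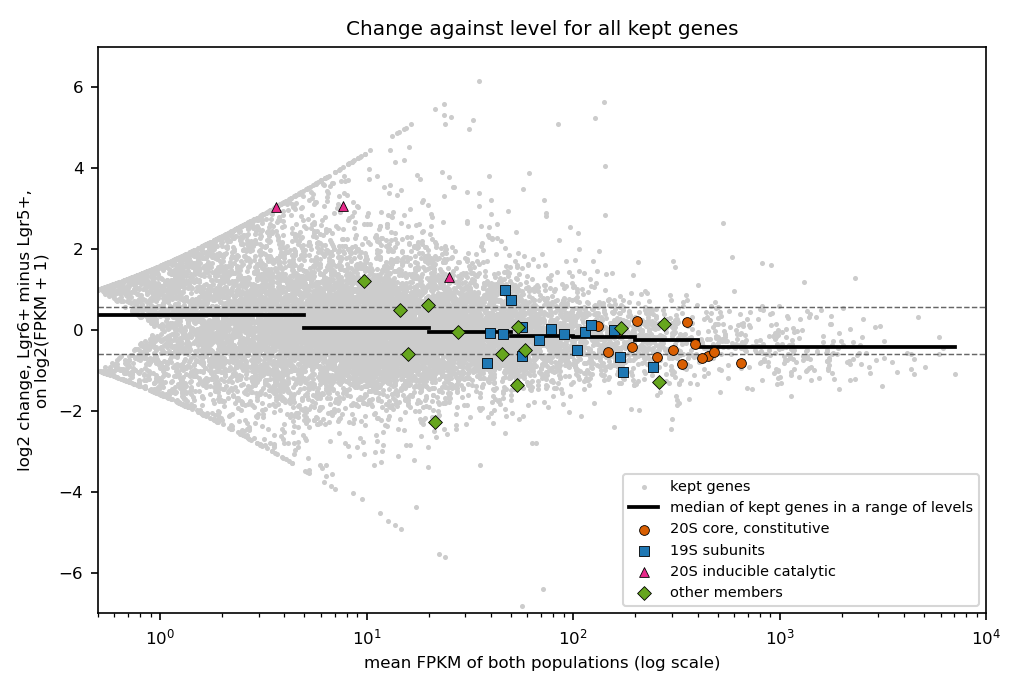
Log2 change (Lgr6+ minus Lgr5+ progenitors, log2(FPKM + 1) scale) against mean FPKM of both populations (log axis) for kept genes (grey) and members (colored by role), with the median of kept genes in each of 7 ranges of level as black lines and 1.5-fold as dashed lines. The axis leaves out 3 kept genes beyond 7 on the log2 scale, none of them a member. The black line falls from 0.37 below 5 FPKM to -0.41 at 400 FPKM or more, and *Psma7*, *Psmb3*, *Psmb5* and *Psmb6* lie below it.

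Low values were also of unequal precision in the populations. Among the lowest values of genes with 1 transcript, FPKM multiplied by transcript length (in kilobases, less 200 bases) piled up at 0.128 in Lgr5+ progenitors, with 98 genes within about 4% of it and 10.5 on average in equal windows beside it. In Lgr6+ progenitors it piled up at 0.0401, with 46 genes and 6.0 beside it. This value was thus 3.20 times larger in Lgr5+ progenitors, in which *Psmb8* was listed at 0. It was read off the combined values and is not a count of reads.

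Genes that act with the proteasome were described by lists of their own. Other subunits and assembly factors outside the naming rule comprised *Pomp*, *Shfm1*, *Adrm1* and *AI314180*. Of these, 2 of the 4 were lower by 1.5-fold, beside 23.3% of all kept genes. *Shfm1*, the small lid subunit, was at 2121 and 1326 FPKM (-0.68), the highest level of any proteasome gene examined. *AI314180*, which tethers proteasomes, was at 16.9 and 8.40 FPKM. *Adrm1*, another ubiquitin receptor, was at 132 and 144 FPKM, so that it did not follow *Psmd4*. Of its deubiquitinases, *Uchl5* was at 29.2 and 15.5 FPKM and *Usp14* at 12.2 and 16.7 FPKM.

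Shuttle and unfolding factors that bring substrates to the proteasome were described by 7 genes, and the list is not complete here. Of the 7, 4 were lower by 1.5-fold, beside 23.3% of all kept genes. *Zfand2a*, an arsenite-inducible factor, was at 10.5 and 1.35 FPKM (-2.29), and *Ubqln4* was at 55.9 and 24.0 FPKM (-1.19). *Vcp*, the ATPase that extracts ubiquitylated proteins, was at 215 and 139.9 FPKM (-0.62), and *Ubqln2* was at 13.1 and 6.61 FPKM. Of the genes that encode ubiquitin, *Ubb* was at 1655 and 1837 FPKM, whereas *Rps27a*, in which ubiquitin is fused to a ribosomal protein, was at 2128 and 1263 FPKM (-0.75). Both ubiquitin-activating enzymes were higher, *Uba1* at 29.9 and 51.9 FPKM and *Uba6* at 1.15 and 4.73 FPKM.

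The regulators of subunit genes were divided. *Nfe2l1*, the factor that raises subunit genes when the proteasome is inhibited, was at 49.2 FPKM in Lgr5+ and 27.2 FPKM in Lgr6+ progenitors, a change of -0.83. Its activating enzymes were low but higher in Lgr6+ progenitors, with *Ngly1* at 2.19 and 12.4 FPKM (2.08) and *Ddi2* at 0.786 and 1.96 FPKM (0.73). *Nfe2l2* was at 7.60 and 6.14 FPKM and *Nfe2l3* at 1.42 and 5.19 FPKM. Of the small Maf partners, *Maff* was lower, at 6.35 and 1.08 FPKM, and *Mafk* was higher, at 6.82 and 13.5 FPKM. In all, 4 of these 9 genes were higher by 1.5-fold and 2 were lower, beside 28.5% and 23.3% of all kept genes. *Ddi2* passed the filter only through Lgr6+ progenitors, so that it had to be higher.

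Other large complexes were set beside the proteasome. Their median levels in Lgr5+ progenitors were 56.1 FPKM for the COP9 signalosome, 143 FPKM for eIF3 and 133 FPKM for CCT, and that of the 26S subunits was 165 FPKM. The 9 genes of the COP9 signalosome, whose architecture is that of the 19S lid, had a median change of -0.08, with 1 higher and 1 lower, and the 8 lid genes also had a median of -0.08, with 1 higher and 2 lower. The 13 eIF3 genes had a median of -0.37 with 4 lower, and the 8 genes of the CCT chaperonin had a median of -0.39 with 1 lower. The median of the 31 constitutive 26S subunits was -0.33, which lies among these values, with 10 lower and 2 higher. Of all kept genes, 23.3% were lower and 28.5% higher by 1.5-fold. Summed FPKM in Lgr6+ progenitors was 87.8%, 75.9% and 80.5% of that in Lgr5+ progenitors for the COP9 signalosome, eIF3 and CCT. It was 74.2% for the 31 listed 26S subunits, without *Shfm1* and *Adrm1*. The differences between the complexes were not tested.

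Markers of the sorted cells were checked beside the members. *Lgr5* was at 9.65 FPKM in Lgr5+ and 24.99 FPKM in Lgr6+ progenitors and *Lgr6* at 2.06 and 2.90 FPKM, so the sorted gene was not highest in its own population for *Lgr5*. Of 6 supporting cell markers, 2 were lower by 1.5-fold in Lgr6+ progenitors, beside 23.3% of all kept genes. These were *Sox2* at 139.6 and 54.8 FPKM and *Jag1* at 108 and 59.2 FPKM. Only *S100a1* had a higher value in Lgr6+ progenitors, at 2959 and 3177 FPKM. It made up most of the sums of the 6 markers, which were nearly equal at 3360 and 3408 FPKM. Of 6 hair cell markers, 5 were higher by 1.5-fold, beside 28.5% of all kept genes, with sums of 231 and 503 FPKM. The other, *Atoh1*, was at 30.9 and 36.4 FPKM (0.23). The part of other cells in the levels of the members was not tested.

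Within the genome the members were scattered, with 10 on chromosome 11, 6 each on chromosomes 2 and 14, and 3 on chromosome 17. Transcript length was taken as the median over all annotated transcripts of a gene in NCBIM37, which need not be the length of the transcript present. By this measure 28 of the 47 kept members were under 1000 bases, beside 3488 of the 13436 kept genes, some of which had no length. These 28 had a median change of -0.17, beside -0.02 for all kept genes of that length. The 12 members of 1000 to 2000 bases had a median of -0.29 beside 0.06, and the 7 longer ones had 0.08 beside 0.05.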

How the data were processed

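EGFP+ cells of 2 populations were sorted at P3, and the authors prepared libraries with the low-input kit SMART-Seq v4, which does not keep strand, and sequenced as paired-end reads. Per the labels, the reads were trimmed with Trimmomatic, mapped with TopHat and quantified with Cufflinks, with versions not given in the sources used here. Per the labels the genome was mm10, and the paper names mm9. Positions in the table overlapped the RefSeq GRCm38.p6 gene for 98.8% of 22500 shared symbols and the NCBIM37 gene for 12.7% of 20918. The values deposited by the authors are FPKM, 1 combined value per population, normalized for transcript length and mapped fragments. The table gives no read counts. The table's columns of log2 fold change, p-value and q-value hold the authors' own comparison and were not used.

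A gene was kept if it reached an FPKM of 1 in one population or both. Changes were taken on log2(FPKM + 1), and 1.5-fold on that scale was the threshold. Had the table held values per sample, limma would have been run. With 1 value per population no test was made. Motifs were searched in RefSeq GRCm38.p6 promoters of 300 bases. A missing promoter was not looked for elsewhere. Every member was accounted for, and of the related lists each gene past 1.5-fold and the highest genes were named. A gene each of the shuttle, ubiquitin and class I lists is not reported here, and the counts of these lists are over the other genes. *Tapbp*, *H2-D1*, *Tap1*, *Adrm1*, *Usp14*, *Nfe2l2*, *Ubb* and the low *Ptprc* were named after their values were seen. Members and lists were chosen with earlier results of these data known, and the ranges of level and length and the steps of low values after seeing the data. Alternatives were another pseudocount, filters, scalings and a 2-fold threshold. The calculations used Python 3.11.15, numpy 2.4.6 and pandas 2.3.3, with figures by matplotlib 3.10.9, and were tested on simulated data.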

Additional observations from a re-analysis of the deposited data

How the results depend on the processing

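No paired analysis was possible because the table holds 1 combined value per population, and for the same reason no replicate could be left out. Without a replicate spread, a median was taken as moved past 0.1 on the log2 scale, a count past 1.5 times and a share past 10%. By these limits 31 values moved and 65 did not. Some of the 65 could not move, since the filters took no gene out of the α ring, the constitutive β ring, the ATPases or the other 19S subunits. The upper quartile scaling also left values almost as deposited, so these counts do not measure stability. Rescaling to the same sum gave 5 lower members and medians of 0.16 for all members, -0.067 for the α ring, -0.26 for the β ring, 3.52 for the inducible subunits, 0.24 for the ATPases, 0.16 for the other 19S subunits, 0.37 for the activators and -0.36 for the chaperones. Quantile normalization gave 7 lower members, 0.031 for the α ring, -0.28 for the β ring, 2.84 for the inducible subunits, 0.13 for the ATPases, 0.34 for the activators and an inducible share of 1.06% in Lgr5+ progenitors. Less the median of genes at the same level, which was added after seeing the data, 8 members were lower, and the medians were -0.084, -0.26, 2.68, 0.14 and 0.31 for the same 5 groups. An FPKM of at least 20 gave 4 higher members and medians of -0.28 for all members, 1.31 for the inducible subunits and -1.28 for the chaperones. Keeping genes only where both populations reached an FPKM of 1 gave -0.24 for all members and 1.31 for the inducible subunits. A pseudocount of 0.1 gave 3.97 for the inducible subunits, and a 2-fold threshold 4 higher and 4 lower members, beside 18.2% and 11.7% of all kept genes. The rescaled values differ by a constant factor per population, whereas quantile normalization moves each gene by its own amount, and the cause of the differences was not tested. The combined values carry no read counts per gene, so no interval is given for low genes such as *Psmb8* and *Psmb9*.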
